A study of Mus musculus with 4 samples.

Results

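The genes of the TGF-beta pathway examined here were the 3 ligand genes Tgfb1, Tgfb2 and Tgfb3, the receptor genes Tgfbr1 and Tgfbr2, the signal transducer Smad3, the inhibitory Smads Smad6 and Smad7, and the co-repressor Skil. Their sites of accessibility were taken as all ATAC-Seq sites that overlapped the body of one of the 9 genes or lay within 30 kb of its transcription start site (TSS) in the GENCODE annotation of mm10. This gave 80 of the 82325 sites in the table. The rule for the sites used position and no accessibility value, while the genes were picked with earlier results of these data known. Smad3 had 22 sites, Smad6 13, Smad7 11, Tgfb2 8, Tgfb1 7, Tgfb3 6, Tgfbr2 6, Skil 4 and Tgfbr1 3. Of the 80 sites, 15 lay within 3 kb of the TSS of their own gene, 44 in an intron of it and 3 in an exon, while 16 were upstream and 2 downstream.

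ATAC-Seq uses the Tn5 transposase to cut open chromatin and tag it with adapters, and the reads recovered at a site measure its accessibility. It was applied to mouse embryonic fibroblasts (MEFs) of C57bl6 background, grown from whole embryos after removal of the internal organs and immortalized with SV40 T antigen. HAT1, an acetyltransferase of newly made histones, was intact in the HAT1+/+ lines (WT) and lost in the HAT1-/- lines (KO), which came from knockout embryos. Both genotypes had 2 libraries, each from a separate line, and were grown in the same serum-containing medium without further treatment. A line is a population that has gone through immortalization once, so differences between lines and differences between genotypes can be told apart only as far as 2 lines a genotype allow.

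TGF-beta ligands are secreted in a latent form, released by integrins and proteases, and bound by a type II receptor that phosphorylates a type I receptor. The activated type I receptor phosphorylates Smad2 and Smad3, which enter the nucleus with Smad4 and bind short DNA motifs, often beside AP-1 sites. The inhibitory Smads and Skil close negative feedback loops and are themselves induced by the pathway. In fibroblasts TGF-beta is the best known inducer of matrix production and of the contractile myofibroblast state.

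Several sequences show the DNA under, or partly beside, the sites on which the results turn. They are given 5′ to 3′ with coordinates of the mm10 assembly, and capitals mark letters found on either strand. The first 3 are the central 300 bases of a site on the plus strand. In the Smad3 intron, 11.8 kb from the TSS (chr9:63746035-63746334), the capitals mark 1 TEAD motif (GGAATG, here as its reverse complement) and 1 AP-1 motif (TGANTCA). This was the site that met the calling threshold.

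Smad3 intronic site: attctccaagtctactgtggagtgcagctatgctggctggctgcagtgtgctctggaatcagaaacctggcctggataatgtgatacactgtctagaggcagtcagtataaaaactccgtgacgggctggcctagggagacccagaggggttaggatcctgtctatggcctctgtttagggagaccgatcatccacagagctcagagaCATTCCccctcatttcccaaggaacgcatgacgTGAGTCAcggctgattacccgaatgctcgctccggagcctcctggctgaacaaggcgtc

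In the Tgfb3 upstream site 22 kb from the TSS (chr12:86100870-86101169) the capitals mark the palindromic SMAD motif GTCTAGAC. It was the single 300-base window of the 80 that held it.

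Tgfb3 upstream site: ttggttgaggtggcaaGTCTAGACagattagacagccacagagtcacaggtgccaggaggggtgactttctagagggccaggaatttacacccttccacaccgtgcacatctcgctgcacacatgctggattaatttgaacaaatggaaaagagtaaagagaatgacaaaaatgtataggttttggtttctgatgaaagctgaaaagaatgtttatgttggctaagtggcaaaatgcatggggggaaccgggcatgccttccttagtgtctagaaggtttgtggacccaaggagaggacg

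The Tgfbr2 intronic site 22.3 kb from the TSS (chr9:116152931-116153230) was as accessible as a promoter in all 4 libraries. Its capitals mark 2 AP-1 motifs and 1 TEAD motif.

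Tgfbr2 intronic site: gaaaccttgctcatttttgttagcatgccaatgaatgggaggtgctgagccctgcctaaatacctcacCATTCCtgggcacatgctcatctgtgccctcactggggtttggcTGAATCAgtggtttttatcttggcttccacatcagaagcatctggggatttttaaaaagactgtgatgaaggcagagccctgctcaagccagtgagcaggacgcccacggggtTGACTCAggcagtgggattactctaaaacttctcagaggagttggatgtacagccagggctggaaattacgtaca

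The last 2 are promoters from RefSeq (build GRCm38.p6), from 250 bases before to 50 bases after the start, on the minus strand, which both genes use. RefSeq gave a promoter for 6 of the 9 genes. There was none for Tgfb3, Smad7 and Skil. The Smad6 promoter (chr9:64022010-64022309) lay wholly within the promoter site of Smad6, had 66.3% GC and 31 CpG, and its capitals mark GTCTAGAC. The Tgfb2 promoter (chr1:186705940-186706239) shared 242 bases with the promoter site of Tgfb2, which had the lowest accessibility per kb of the 9. Its capitals mark the SMAD motif CAGACA, which lay in the part of the promoter outside that site.

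Smad6 promoter: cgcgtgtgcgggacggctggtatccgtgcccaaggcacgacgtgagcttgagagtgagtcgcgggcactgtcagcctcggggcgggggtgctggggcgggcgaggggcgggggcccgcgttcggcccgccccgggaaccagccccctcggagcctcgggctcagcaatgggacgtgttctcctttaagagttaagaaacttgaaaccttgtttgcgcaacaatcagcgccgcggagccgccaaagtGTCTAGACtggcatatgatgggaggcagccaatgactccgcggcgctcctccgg

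Tgfb2 promoter: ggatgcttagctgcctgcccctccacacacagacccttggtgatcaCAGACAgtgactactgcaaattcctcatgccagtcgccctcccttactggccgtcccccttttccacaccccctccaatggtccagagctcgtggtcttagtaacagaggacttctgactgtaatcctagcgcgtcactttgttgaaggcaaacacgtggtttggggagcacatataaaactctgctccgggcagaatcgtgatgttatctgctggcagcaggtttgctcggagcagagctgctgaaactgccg

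Among all 32851 RefSeq promoters, 0.213% held GTCTAGAC and 21% held CAGACA. In the central 300 bases of the sites, both strands read, AP-1 letters were in 23 of the 80 sites (28.7%), against 37.7% of all sites. They were in 1 of the 15 promoter sites and in 22 of the other 65 (33.8%). TEAD letters were in 27 sites (33.8%), of which 25 were outside promoters, against 24.7% of all sites. CAGACA was in 19 sites (23.8%), against 25.7% of all sites, and GTCTAGAC in 1 (1.25%), against 0.318%. These are matches of letters and not measured binding. The promoter sites of the 9 genes were GC-rich, with a median of 63.4% GC and 7.86 CpG per 100 bases, whereas the other 65 sites had a median of 1.67 CpG per 100 bases.

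The values used were the normalized counts of reads per site as deposited. The libraries summed to 8008069 and 8150872 normalized counts in WT and to 8427919 and 8516263 in KO, and the median site had 51 to 53. Both KO totals were thus above both WT totals in the values as deposited. From the spacing of the values, the reads in sites numbered approximately 9421258 in WT replicate 1, 11415787 in WT replicate 2, 7832639 in the first KO library and 5675617 in the second, so the KO libraries, and KO replicate 2 above all, were shallower. These read numbers were inferred from a scale factor for each library and were not counted. The spacing fitted less well in WT (0.74 and 0.87) than in KO (0.951 and 0.973). Intervals given for counts rest on the inferred factors and cover counting error only. The fibroblast markers had a promoter site for 8 of 10 genes, led by Vim with a mean of 866.2 normalized counts and Twist1 with 360.5, and their sum ran from 1971 to 2245 in WT and from 2328 to 2347 in KO. Pdgfra and Lum had none. The defining markers Ptprc and Spi1 of blood cells, Cdh5 of endothelium and Myod1, Myog and Myf5 of skeletal muscle had no promoter site, as did Krt18 of epithelium. Other markers on these lists did have one: 1 of 4 for blood (Cd68, 179.8 normalized counts), 2 of 4 for endothelium (Kdr with 123.2 and Pecam1 with 55.5), 3 of 4 for epithelium (Krt8 with 93.5, Cdh1 with 39 and Epcam with 20.5) and 3 of 4 neural genes (Nes with 373.8). Some fibroblast markers were no higher, with 78.8 at Thy1 and 20.5 at Dcn, so promoter accessibility alone did not separate the cell types. The promoter site of Hat1 itself held 390 and 384 normalized counts in WT and 438 and 368 in KO, so accessibility at this site did not mark the genotype.

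To ask whether loss of HAT1 changed accessibility in this pathway, the 80 sites were compared between KO and WT with limma on the log2 scale, fitted over all 82325 sites. Accessibility in KO was close to that in WT at most sites. The log2 fold change (KO minus WT) had a median of 0.0872, with the quartiles of the sites at -0.13 and 0.26, and 66 of the 80 sites (82.5%) changed by less than 0.5, against 76.31% of all sites. The median over all sites was 0.00625. With equal library totals the medians were 0.0191 for the 80 sites and -0.061 for all sites. One site was called, that is, 1 of 80 with a p under 0.01 before adjustment and a change of 1 or more on the log2 scale in either direction, against 0.373% of all sites (307). With an unadjusted p under 0.05 there were 3 of 80, against 3.13% of all sites. These were the Smad3 intronic site, the Smad6 promoter and a site upstream of Smad7. After Benjamini-Hochberg adjustment over all sites, 0 sites had an adjusted p under 0.05 in limma, and 0 of 18267 genes.

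Both KO libraries lay below both WT libraries at 10 of the 80 sites (12.5%), against 14.3% of all sites. Both lay above at 21 (26.2%), against 14.6% of all sites. With equal library totals both lay above at 16 of the 80 sites and below at 10. With quantile normalization both lay above at 16 and below at 11, so the number above depended on the scaling. The shares of all sites given here are for the values as deposited. The 80 sites were more accessible than average, with 59 of them reaching the median over the whole table, and among all sites that reached it the share with both KO libraries above was 19.6% and with both below 10.2%. Of the 80 sites 53 had a log2 fold change above 0 (66.2%), against 50.7% of all sites and 59.4% of the more accessible ones. With equal library totals this number was 47, and with quantile normalization also 47. The SD over the 80 sites was 0.56 for the log2 difference between the WT lines and 0.69 for that between the KO lines. It was 0.40 for the mean of KO minus the mean of WT, in which the spread between single lines is partly averaged out.

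**Figure D1:**
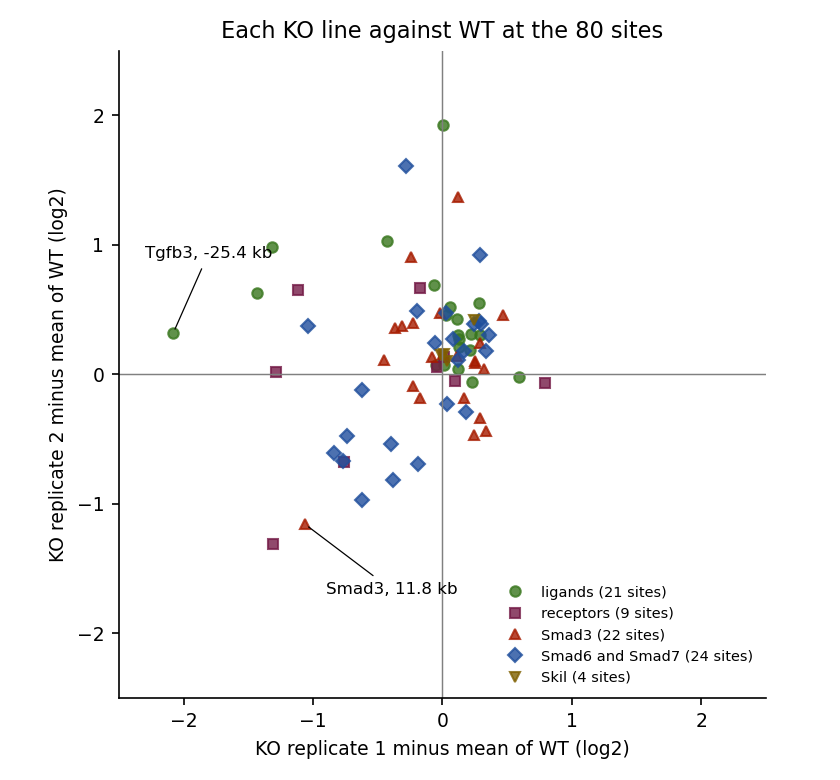
Log2 difference of each KO line from the mean of the WT lines at the 80 sites, with KO replicate 1 on the x axis and KO replicate 2 on the y axis, 1 point a site and symbols for the groups of genes. Most points lie near 0, the called Smad3 site lies low in both KO lines, and the Tgfb3 site 25.4 kb upstream is low in KO replicate 1 only.

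The promoters of the 9 genes were open in all 4 libraries and were close in KO and WT. Each is represented by its most accessible site within 3 kb of the TSS. The promoter site of Tgfbr2, the type II receptor that binds the ligand, held 462 and 492 normalized counts in WT and 463 and 495 in KO. Its log2 fold change was 0.00593 with an SE of 0.11. Thus its libraries interleaved and the genotypes could not be separated.

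The promoter of Tgfbr1, the type I receptor kinase, held 351 and 362 in WT and 382 and 343 in KO. The 2 KO libraries were the highest and the lowest of the 4, and the log2 fold change was 0.0221 with an SE of 0.14. The Smad3 promoter held 450 and 422 in WT and 438 and 487 in KO, again overlapping, with a log2 fold change of 0.0837 and an SE of 0.12. Skil, which encodes the SnoN co-repressor that binds Smads, held 491 and 404 in WT and 449 and 499 in KO at its promoter. Here the WT lines spanned most of the range, and the log2 fold change was 0.0876 with an SE of 0.14.

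Smad6 encodes an inhibitory Smad that acts mostly on BMP signalling, and its promoter had the largest difference and the smallest error of the 9. Its site (chr9:64021817-64023293, 0.496 kb upstream of the TSS by its centre) held 655 and 620 normalized counts in WT and 784 and 836 in KO. Both KO libraries were above both WT libraries, and the ratio of the KO mean to the WT mean was 1.27. The log2 fold change was 0.34 with an SE of 0.0873 (limma, adjusted p = 1). The unadjusted p was under 0.01 and the fold was below what a call required. With quantile normalization the log2 fold change was 0.13 (SE 0.0848) and with no intensity trend its SE was 0.24, and under both the unadjusted p was above 0.05, as it was without WT replicate 2 (0.31, SE 0.11). Smad7, an inhibitory Smad that targets the TGF-beta receptors for degradation, held 452 and 461 in WT and 484 and 550 in KO at its promoter. The KO libraries were again the higher ones, but the log2 fold change of 0.18 (SE 0.12) did not reach an unadjusted p under 0.05 in limma.

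Of the ligands, Tgfb3 had 355 and 378 normalized counts in WT and 402 and 442 in KO at its promoter site. Both KO libraries were higher, with a log2 fold change of 0.20 (SE 0.13) that did not reach an unadjusted p under 0.05. The same site also lay within 3 kb of the TSS of Ift43, a gene of intraflagellar transport, so the signal cannot be assigned to 1 of the genes. The promoter site of Tgfb1, 2.26 kb into the gene, held 174 and 222 in WT and 227 and 224 in KO, with a log2 fold change of 0.20 and an SE of 0.21. WT replicate 1 was the low library there and the other 3 were alike. That of Tgfb2 held 257 and 209 in WT and 224 and 244 in KO. The KO libraries lay between the WT libraries, and the log2 fold change was 0.0125 with an SE of 0.19.

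Over all 15 promoter sites of the 9 genes the log2 fold change ran from 0.00593 to 0.34, with a median of 0.0876. All 15 were thus above 0 in the values as deposited, but 11 were with equal library totals and 10 with quantile normalization. Both KO libraries lay above both WT libraries at 5 of the 15, and both below at 0, against 14.6% and 14.3% of all sites and 19.6% and 10.2% of the more accessible ones. These counts are also for the values as deposited. The number above was lower with equal library totals, where the genotypes overlapped at the promoter sites of Tgfb1.

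**Figure D2:**
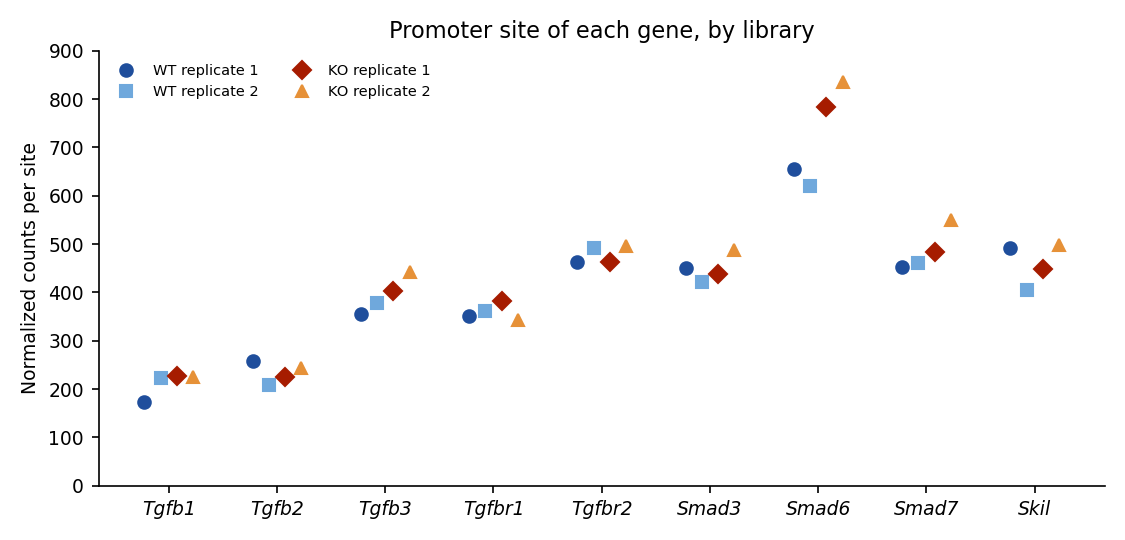
Normalized counts at the promoter site of each of the 9 genes on the y axis, 1 point a library, WT replicates in blue and KO replicates in red and orange. The 4 libraries overlap or nearly touch at most promoters. The 2 KO libraries are the highest at Tgfb1, Tgfb3, Smad6 and Smad7, with the largest difference at Smad6 (784 and 836 against 655 and 620).

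Per kb of site, the order of promoter accessibility over the 4 libraries was led by the inhibitory and receptor-activated Smads. The Smad7 promoter had 562.7 ± 51.2 normalized counts per kb (SD, n = 4), Smad3 514 ± 31.6 and Smad6 490 ± 69.6. Tgfb3 with 377.6 ± 35.6, Tgfbr2 with 349.2 ± 13.1 and Skil with 324.9 ± 30.8 followed. The lowest were Tgfb1 with 294.1 ± 35.1, Tgfbr1 with 293 ± 13.8 and Tgfb2 with 221.3 ± 20.1. Every promoter overlapped the next in this order over the 4 libraries, except that the lowest value of Tgfbr1 (279.5 per kb) was above the highest of Tgfb2 (243.6 per kb).

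Smad3 was the gene with the most sites and held the called site. It lies in an intron (chr9:63745858-63746512), 11.8 kb from the TSS, and within 3 kb of the start of another annotated Smad3 transcript. The WT libraries held 165 normalized counts (95% exact Poisson interval 142.6 to 189.9) and 197 (174.4 to 221.7), and the KO libraries held 86 (68.2 to 107) and 80 (60 to 104.6), replicate 1 first. Both KO lines were thus at similar low values, with intervals apart from those of the WT lines. The ratio of the KO mean to the WT mean was 0.459 and the log2 fold change was -1.11 with an SE of 0.25 (limma, adjusted p = 1). The call was not kept without the intensity trend of limma, where the unadjusted p was above 0.01, or with any 1 library left out, where the log2 fold change was between -1.24 and -0.98.

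The neighbouring sites did not have both KO libraries lower. The site 1.68 kb nearer the TSS, by its centre, held 118 and 81 normalized counts in WT and 136 and 135 in KO. The site 2.17 kb farther held 144 and 222 in WT and 226 and 132 in KO. The first had both KO libraries higher, and the second had no order by genotype. Over all 22 Smad3 sites the median log2 fold change was 0.0574, and 1 site had both KO libraries below both WT libraries while 4 had both above (18.2%), against 14.3% and 14.6% of all sites. A site 55.2 kb into the gene split the lines in another way, with 103 in WT replicate 1, 336 in WT replicate 2, with 157 and 350 in KO. Replicate 2 of both genotypes was high there, and the numbers pair nothing, so this was a spread between lines. Summed over its 22 sites, Smad3 had 3167 and 3374 in WT and 3285 and 3488 in KO.

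**Figure D3:**
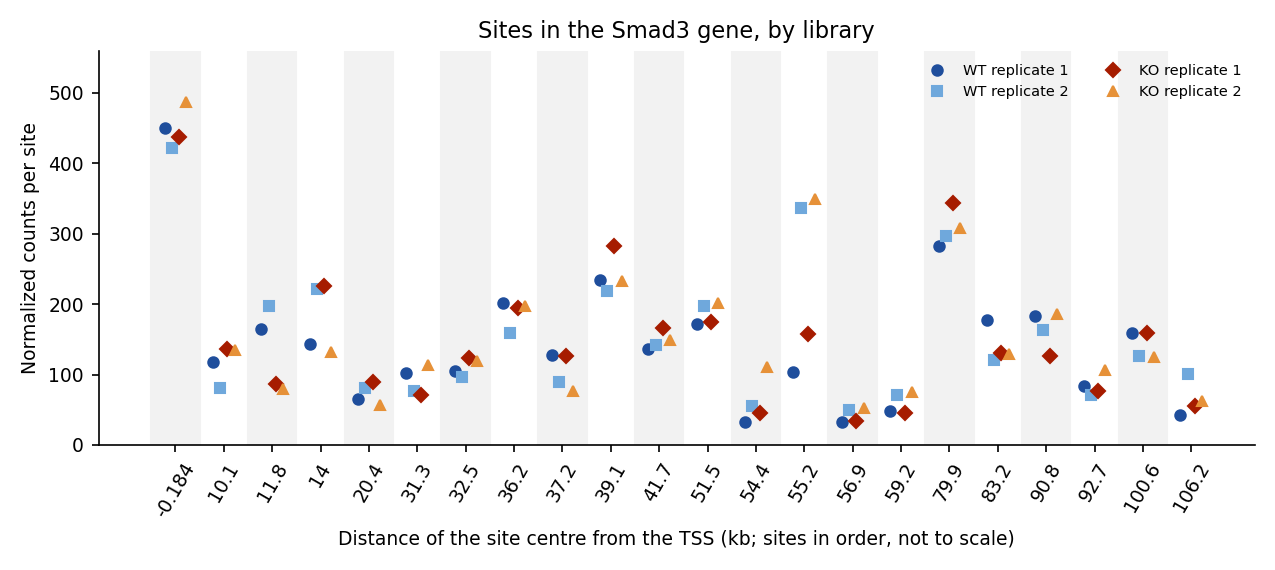
Normalized counts at the 22 sites of Smad3 on the y axis, in order of the distance of the site centre from the TSS in kb on the x axis (evenly spaced, not to scale), 1 point a library. At 11.8 kb both KO libraries (86 and 80) lie below both WT libraries (165 and 197), and at 55.2 kb the libraries split within each genotype.

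The other sites of Smad6 went in both directions, and their difference from the promoter was not tested. Of its 13 sites 5 had both KO libraries below both WT libraries, against 14.3% of all sites, and 2 had both above, against 14.6%, the promoter and an intronic site at 41.5 kb. That intronic site held 300 and 292 in WT and 301 and 409 in KO, a log2 fold change of 0.24 with an SE of 0.19. A weak site at 53.3 kb had the highest log2 fold change of the 13, 0.61 with an SE of 0.46, and the median over the 13 was -0.33. The 13 sites had a median of 47.8 normalized counts, against 52 over all sites. Of all sites at or above that overall median, both KO libraries lay below at 10.2%, so the share among weaker sites was above 14.3%. Among the 5 lower sites the most accessible was 28.4 kb upstream, in a long noncoding RNA gene (1110036E04Rik). It held 195 and 214 in WT and 179 and 126 in KO, a log2 fold change of -0.44 with an SE of 0.25. The other 4 had low counts, and none of the 5 had a p under 0.05. They held 42 and 28 in WT and 22 and 17 in KO at 23.3 kb upstream, and 43 and 51 in WT and 27 and 29 in KO at 20.8 kb into the gene. The 2 at 51.1 and 65.8 kb into the gene held 31 and 34 in WT with 19 and 23 in KO, and 60 and 55 in WT with 44 and 32 in KO. Smad6 summed over 13 sites, promoter included, had 1700 and 1671 in WT and 1717 and 1863 in KO, a log2 fold change of 0.0856 with an SE of 0.102.

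Smad7 had 9 of 11 sites with a log2 fold change above 0, and both KO libraries lay above both WT libraries at 6 of the 11 and below at 2, against 14.6% and 14.3% of all sites and 19.6% and 10.2% of the more accessible ones. The exception with the largest difference was 4.2 kb upstream, which held 118 and 150 normalized counts in WT and 74 and 87 in KO. Both KO libraries were lower, with a log2 fold change of -0.72 and an SE of 0.28, at an unadjusted p under 0.05 and an adjusted p of 1 in limma. Summed over its 11 sites Smad7 had 2335 and 2375 in WT and 2526 and 2767 in KO, a log2 fold change of 0.17 with an SE of 0.105.

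At Tgfb1 all 7 sites had a log2 fold change above 0, between 0.0867 and 0.28, also with equal library totals and with quantile normalization. No site had an unadjusted p under 0.05, and these values were small beside the spread between lines, whose log2 differences at the 7 sites had an SD of 0.34 in WT and 0.36 in KO. KO replicate 2 lay below the mean of WT at 2 of the 7 sites, by its log2 difference of -0.0558 at 1.1 kb and -0.0171 at 19 kb. At 6.14 kb upstream, a site shared with the TSS of B9d2, the values were 241 and 243 in WT and 261 and 326 in KO, a log2 fold change of 0.27 with an SE of 0.18. The site 28 kb upstream lay at the starts of Bckdha and Exosc5. Over the 7 sites Tgfb1 summed to 1286 and 1329 in WT and 1431 and 1596 in KO. The log2 fold change of 0.21 was the largest of the 9 genes, with an SE of 0.108 (limma, adjusted p = 0.906). The genes whose summed values over the 4 libraries lay nearest to this pattern, by Euclidean distance of centred log2 values among 9445 genes with at least 5 sites, were Gpd2 (0.0225), Meis2 (0.0245) and Hmgb2 (0.0257). Within a distance of 0.2 lay 2604 of the 9445 genes. The change at Tgfb1 was itself small, so that distance also takes in genes with a much smaller change. The number therefore does not show how common a rise like that of Tgfb1 was.

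Tgfb2 and Tgfb3 showed where the 2 KO lines disagreed. Tgfb3 had 5 sites upstream of its promoter, all in the body of Ift43. At 25.4 kb upstream (chr12:86104124-86104691) the values were 145 and 124 in WT, with 31 in the first KO library and 168 in the second. At 12.8 kb they were 155 and 202 in WT, 65 in the first KO library and 274 in the second. KO replicate 1 was the lowest library and KO replicate 2 the highest at both sites, so that neither showed a difference between the genotypes, with log2 fold changes of -0.88 (SE 0.73) and -0.40 (SE 0.63). The site at 22 kb, whose sequence is given above, had 87 and 73 in WT, and 59 and 164 in KO. At 7.02 kb KO replicate 2 stood alone with 75, against 17, 21 and 19 in WT replicate 1, WT replicate 2 and KO replicate 1. Summed over 6 sites Tgfb3 had 865 and 919 in WT and 715 and 1263 in KO, and the log2 fold change turned on which KO line was kept. It was 0.50 without KO replicate 1, where the unadjusted p in limma was under 0.05, and -0.32 without KO replicate 2.

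**Figure D4:**
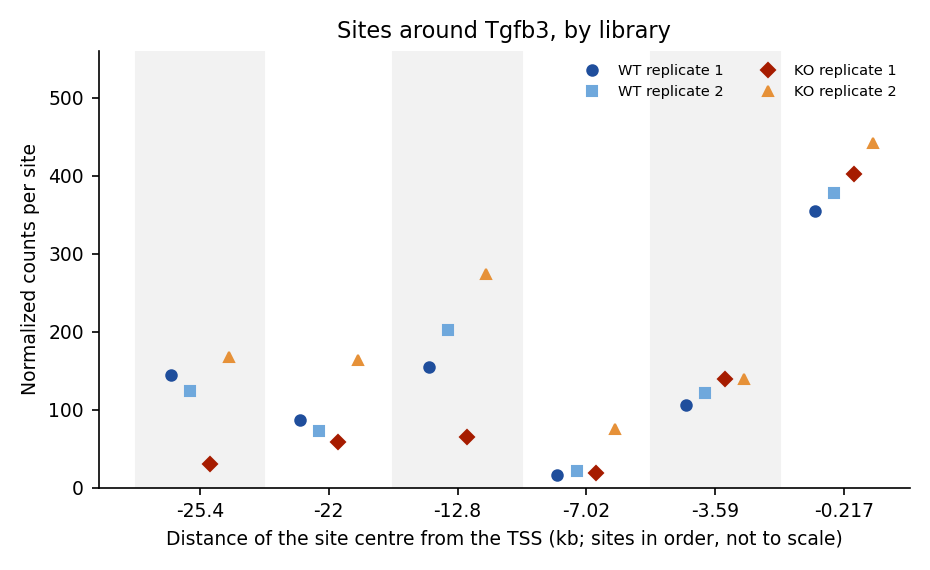
Normalized counts at the 6 sites around Tgfb3 on the y axis, by distance from the TSS in kb on the x axis (evenly spaced, not to scale), 1 point a library. KO replicate 1 is lowest and KO replicate 2 highest at the 3 farthest sites, and the libraries come together at the promoter.

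At Tgfb2 a weak upstream site, 13.1 kb from the TSS, split the KO lines in the same direction, with 26 and 22 in WT, 9 in the first KO library and 48 in the second. The intronic site 29.8 kb into Tgfb2 held 73 and 85 in WT and 96 and 116 in KO. Both KO libraries were higher, with a log2 fold change of 0.42 (SE 0.29) that did not reach an unadjusted p under 0.05. Summed over 8 sites Tgfb2 had 658 and 612 in WT and 639 and 794 in KO.

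The receptor genes had few sites and no difference beyond the spread between lines. The intronic site of Tgfbr2 at 22.3 kb held 495 and 534 in WT and 519 and 561 in KO, or 678.6 per kb on average, and its log2 fold change was 0.0696 with an SE of 0.11. The weaker intronic sites of Tgfbr2 varied with the line. The site at 59.1 kb held 26 in WT replicate 1, 91 in WT replicate 2, with 22 and 77 in KO. At 7.78 kb WT replicate 2 stood alone with 44, against 10, 8 and 8 in the other libraries, which gave the lowest log2 fold change of the 80 sites, -1.31, with an SE of 0.85. At Tgfbr1 the intronic site 54.2 kb from the TSS held 74 and 46 in WT and 34 and 36 in KO, a log2 fold change of -0.72 with an SE of 0.38. Both KO libraries were lower there, without an unadjusted p under 0.05. Summed over their sites, Tgfbr1 had 438 and 427 in WT and 444 and 394 in KO, and Tgfbr2 had 1043 and 1255 in WT and 1051 and 1224 in KO. At Skil, an intronic site 14.2 kb from the TSS held 134 and 158 in WT and 172 and 195 in KO, with a log2 fold change of 0.33 and an SE of 0.23, and the 4 sites summed to 800 and 715 in WT and 783 and 874 in KO.

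By sums over the sites of a gene, fitted in limma over 18267 protein-coding genes, 0 of the 9 genes had an unadjusted p under 0.05, against 4.16% of all genes. The log2 fold change was above 0 for 7 of 9, against 61.7% of all genes, with a median of 0.0919 beside a median of 0.0521 over all genes. These are counts in the values as deposited. The Smad3 sum fell below 0 with equal library totals (-0.0181). With quantile normalization those of Smad3 (-0.0252) and Smad6 (-0.0283) did. Both KO libraries lay above both WT libraries for Tgfb1, Smad6 and Smad7, 3 of 9, against 23.9% of all genes.

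A list of 66 further genes of the pathway was described in the same way, and 65 of them had a site (Mstn, which encodes myostatin, had none). Of these, 1 was lower in KO, against 1.75% of all genes, 3 were higher, against 2.41%, and 61 did not pass an unadjusted p under 0.05. The split was 2 lower and 1 higher with equal library totals, 3 lower and 1 higher with no intensity trend, and 1 lower and 0 higher with quantile normalization, so the balance of directions turned with the setting. The median log2 fold change was 0.0693. The gene that was lower was Inhbb, which encodes a subunit of activin B. It had 417 and 361 in WT and 303 and 221 in KO, a log2 fold change of -0.58 with an SE of 0.21. This sum rested on only 2 sites. With 1 library left out its log2 fold change ran from -0.81 (without KO replicate 1) to -0.36 (without KO replicate 2).

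The 3 that were higher had separate roles. Ccn2 (CTGF), a matricellular target gene of TGF-beta, had 1532 and 1566 in WT and 2098 and 1931 in KO, a log2 fold change of 0.38 with an SE of 0.10. Both KO lines were well above the WT lines, which were almost equal. Itgb8, an integrin subunit that releases latent ligand, had 500 and 452 in WT and 569 and 647 in KO (log2 fold change 0.35, SE 0.14). Pmepa1, a membrane protein that holds Smads away from the receptor, had 2576 and 2442 in WT and 2899 and 3197 in KO (log2 fold change 0.28, SE 0.11). All 4 genes had an adjusted p of 0.906 in limma. With equal totals and with no intensity trend Itgb8 and Pmepa1 no longer passed. With quantile normalization Ccn2, Itgb8 and Pmepa1 no longer passed, at log2 fold changes of 0.19, 0.29 and 0.15.

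Over all 18267 genes 61.7% had a log2 fold change above 0 and 4.16% passed, which is the background for the counts by role. All of these counts are for the values as deposited, in which both KO libraries had the higher totals. The 17 target genes had a median log2 fold change of 0.12 with 15 above 0 and 1 that passed, and the 10 genes of latent ligand handling a median of 0.12 with 9 above 0 and 1 that passed. The 11 inhibitors and partners had 8 above 0 and 1 that passed. Among the 12 other receptors and co-receptors 7 were above 0 and 0 passed, and among the 5 other Smads 2 were above 0 and 0 passed. Of the 10 other ligands and antagonists with a site, 4 were above 0 and 1 passed, Inhbb, in the other direction.

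**Figure D5:**
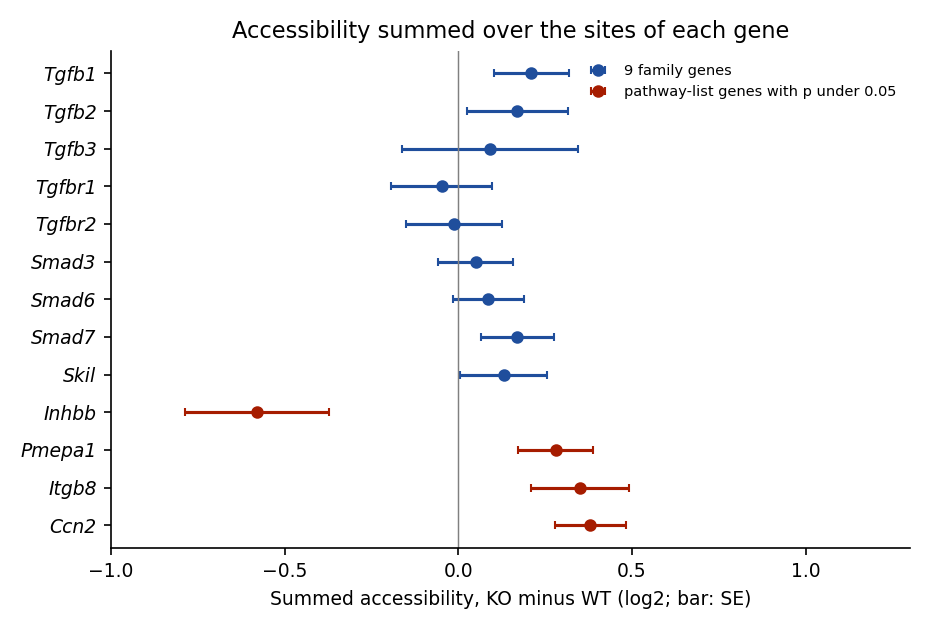
Log2 fold change, KO minus WT, of accessibility summed over the sites of each gene on the x axis, with bars for 1 SE, for the 9 genes (blue) and the 4 genes of the wider pathway list with an unadjusted p under 0.05 (red). The 9 genes lie between -0.0481 and 0.21, and Inhbb is the only one plotted that lies well below 0, at -0.58.

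The study used a sliding average over 25 sites with a cutoff of -0.58 on the log2 scale, joining nearby regions, to find HAT1-dependent accessibility domains in primary MEFs. It also reported closely similar domain patterns in immortalized MEFs. Here the cutoff was set against 1 fixed window a gene in immortalized MEFs, so the procedure differs, as do the cells in which the domains were defined. The 25 sites around the TSS of each of the 9 genes, which span 0.184 to 1.03 Mb, had averages from -0.20 at Smad6 to 0.16 at Smad7, and 0 of the 9 were below the cutoff. At Smad6 the average was -0.27 in KO replicate 1 and -0.12 in KO replicate 2. At Tgfb2 the KO lines lay on either side of 0, with -0.19 and 0.39, and at Tgfb3 the WT lines differed by 0.39, more than either KO line differed from WT.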

How the data were processed

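Immortalized MEFs from 2 HAT1+/+ and 2 HAT1-/- lines were profiled by ATAC-Seq with paired-end reads. The authors aligned reads to mm10 with BWA 0.7.12, called peaks with MACS2 2.1.0 and used DESeq2 for differential occupancy, per the methods and the submitters' processing notes. Peak merging and duplicate or Tn5 offset handling were not given in the sources used here. The deposited score in each library is a count per site that the authors scaled by library and rounded to whole numbers, so no count model was run. Columns with the authors' own fold changes, p-values and adjusted p-values were not used.

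Values were taken as log2(value + 1) and compared with limma 3.58.1 (trend, two-sided, R 4.3.3) over all 82325 sites, and as sums per gene over 18267 protein-coding genes. Log2 fold changes are on this scale and understate changes at weak sites. Sites were called at an unadjusted p under 0.01 and a change of 1 or more on the log2 scale, the thresholds of the study. The scripts were tested on simulated data. Exact permutation of 2 against 2 libraries cannot give a two-sided p below 0.333. P-values rest on the spread between these lines, which limma moderates toward the spread at other sites or genes of like intensity.

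Named were each gene's most accessible site within 3 kb of its TSS, its other site with the largest difference among sites at or above the median value (Tgfbr1 had none), every called site, pathway genes with p under 0.05, and the 3 genes nearest in pattern to the gene with the largest change. Further sites were chosen after their values were seen. The members and lists were chosen with earlier results of these data known. Replicate numbers follow accession order. Alternatives were another pseudocount, equal totals, quantile normalization, a filter on weak sites, no trend, each library left out and other ways to assign sites.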

Additional observations from a re-analysis of the deposited data

How the results depend on the processing

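Of 360 recomputed values (30 results under 12 settings), 303 kept their direction and side of the threshold, 30 reversed, 25 lost and 2 gained a threshold. The other ways to assign sites changed only gene sums and counts. Values of single named sites could not change under them, yet they are counted among the 303. No paired analysis was made, because the labels do not say which lines belong together, and replicate numbers only follow accession order. WT replicate 1 and KO replicate 2 share the number 643 in their line names, which the labels do not explain, and the other 2 lines share none. The count of called sites was 0 without the intensity trend and 0 to 1 with 1 library left out, where the 1, without KO replicate 2, was the Tgfb3 site 25.4 kb upstream (log2 fold change -2.08, limma) and not the Smad3 site. Leaving out a library leaves a lone line assumed to vary like the others. It gave 14 to 22 sites with KO below WT and 31 to 47 above, since fewer libraries have to be apart, 0 to 1 of the 9 genes at p under 0.05 and 1 to 6 pathway genes. The number of pathway genes at an unadjusted p under 0.05 was 1 with quantile normalization, against 2.46% of all genes. It was 2 without promoters of other genes, against 3.49%, and 6 with only sites within 30 kb of the TSS, against 4.57%. Of the 59 sites at or above the median value, 3 had both KO libraries below, against 10.2% of all such sites.

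Values whose sign reversed were these. With equal totals the log2 fold change was -0.0557 at the promoter of Tgfb2, -0.0462 at Tgfbr1 and -0.0624 at Tgfbr2, and -0.0181 for the Smad3 sum. With quantile normalization the promoters were at -0.081 (Tgfb2), -0.0968 (Tgfbr1), -0.15 (Tgfbr2), -0.061 (Smad3) and -0.0612 (Skil), and the sums at -0.0252 (Smad3) and -0.0283 (Smad6). With stronger sites only, the sums were 0.0221 for Tgfbr1 and 0.0255 for Tgfbr2. Within 30 kb of the TSS they were 0.0408 for Tgfbr1 and -0.0605 for Smad3. Without promoters of other genes the Tgfb3 sum was -0.26. With 1 library left out, promoter values ran from -0.14 to 0.16 (Tgfb2), -0.0554 to 0.0996 (Tgfbr1), -0.0422 to 0.054 (Tgfbr2) and -0.0527 to 0.23 (Skil), distal sites from -2.08 to 0.32 (Tgfb3, 25.4 kb) and -1.12 to 0.65 (Tgfbr2, 59.1 kb), and sums from -0.32 to 0.50 (Tgfb3), -0.13 to 0.0379 (Tgfbr1) and -0.15 to 0.12 (Tgfbr2). Their causes were not tested. Depth was lowest in KO replicate 2, which limits the weak sites most.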
